A study of Mus musculus with 60 samples.

Results

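The cortex receives serotonin from the raphe nuclei, noradrenaline from the locus coeruleus, histamine from the tuberomammillary nucleus and acetylcholine from the basal forebrain, and these systems are active during waking. Most of their receptors couple to G proteins. Those coupled to Gi/o lower cyclic AMP, those coupled to Gs raise it and those coupled to Gq release intracellular calcium, whereas the nicotinic receptors and the type 3 serotonin receptors are ion channels. The genes for these receptors were picked by symbol from the annotation of the array (Htr, Hrh, Adra, Adrb, Chrm, Chrna and Chrnb, and Drd3 to Drd5). The pattern matched 41 genes on probesets that carry 1 symbol, and 40 of these passed the filter on low values, out of 18386 genes with 1 symbol that did so. The gene that missed the filter was Hrh4, a histamine receptor, whose deposited log2 values lay between 3.59 and 4.31 and were over 4 in 27 of 59 arrays. The 40 genes comprised 14 serotonin, 13 nicotinic, 5 muscarinic, 3 histamine, 3 dopamine and 2 alpha adrenergic receptors. By coupling, 12 were Gi/o, 8 Gq, 5 Gs and 15 ion channels. No beta adrenergic receptor was among the genes analysed here. Where a gene had several probesets, the one with the highest mean log2 value stood for it.

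RNA came from the left cortex of male C57BL/6J mice of 2 months, with 1 mouse per Affymetrix Mouse Gene ST array. SD mice (n = 7) were kept from sleeping by strokes of a brush during the 6 h after lights on and were taken at ZT6, where ZT counts hours since lights on. Other mice slept afterwards. RS2 mice had 6 h of deprivation and 2 h of recovery (ZT8, n = 4), RS3 mice 5 h and 3 h (ZT8, n = 7) and RS6 mice 5 h and 6 h (ZT11, n = 7). The undisturbed control groups CC0, CC6, CC7, CC8 and CC11 are named for the time (ZT) at which they were taken, and each held 7 mice except CC7 with 6. No mouse carried a mutation, and sleep was not recorded. RS2 and RS3 share the CC8 mice as controls, and their deprivation lasted for different times, so that they are not 2 points of a single time course. SD and RS6 also differ in hours of deprivation and in ZT, so that comparing their effects does not isolate recovery. In bulk tissue fewer cells of a type and less RNA per cell cannot be told apart.

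The deposited values are log2 intensities per probeset (the probes against 1 transcript, summarized). Each comparison was tested in limma, with the 9 groups and 6 RUV factors in the model. RUV (removal of unwanted variation) takes its factors from how mice of the same group differ, so values adjusted for them are more alike within groups by construction. A gene was called at a Benjamini-Hochberg adjusted p under 0.01 over 32819 probesets, and all differences below are log2 differences from this model unless stated otherwise. Levels are deposited values, and they are not compared between genes, because probes differ in brightness. Between 78.1% and 81.1% of probesets exceeded a log2 value of 4 on each array, and the number of mice limits the precision. Excitatory neuron markers (7 of 7 measured) and interneuron markers (9 of 9) passed the filter, as did striatum (7 of 7), thalamus (8 of 8) and hippocampus markers (6 of 7). On the first principal component, 5 arrays stood far from the others, namely replicate 1 of CC0, CC8, SD and RS6 and replicate 2 of SD. The median deviation of 76 small nucleolar RNA probesets was between 0.48 and 1.34 in these 5 arrays and at most 0.26 elsewhere.

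Few of the receptor genes were called, and the called differences were modest. In this model Htr2a, Htr5b and Chrm2 were called higher in SD than in CC6. Htr2a was also called higher in RS2 and RS6, and Hrh3 lower in RS3. Between undisturbed mice Hrh3 was called higher and Chrm3 lower at ZT11 than at ZT6. With a block for replicate number added to the limma model, Htr5b stayed called in SD. The SD calls of Htr2a and Chrm2 were lost with it (adjusted p = 0.0247 and 0.0101). In SD against CC6, 3 of 40 receptor genes were called (7.5%), beside 1.93% of all probesets. In RS2 against CC8 it was 1 (0.299% of all probesets), in RS3 against CC8 1 (0.171%) and in RS6 against CC11 1 (0.149%). At an unadjusted p under 0.05 there were 11 receptor genes in SD (15.9% of all probesets), 7 in RS2 (10.5%), 7 in RS3 (11.7%) and 11 in RS6 (14.1%). The median difference over the 40 genes was 0.04 in SD, -0.01 in RS2, 0.00 in RS3 and 0.01 in RS6, beside 0.00, 0.01, 0.01 and 0.01 over all probesets. The single differences lay between -0.42 and 0.57. In 25 of the 40 genes the 95% interval of the SD difference lay within 0.3 of 0, as it did in 22, 27 and 28 genes in RS2, RS3 and RS6. Without RUV no receptor gene was called in these 4 comparisons, and the unadjusted p was under 0.05 for 10, 4, 4 and 6 of them.

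**Figure D1:**
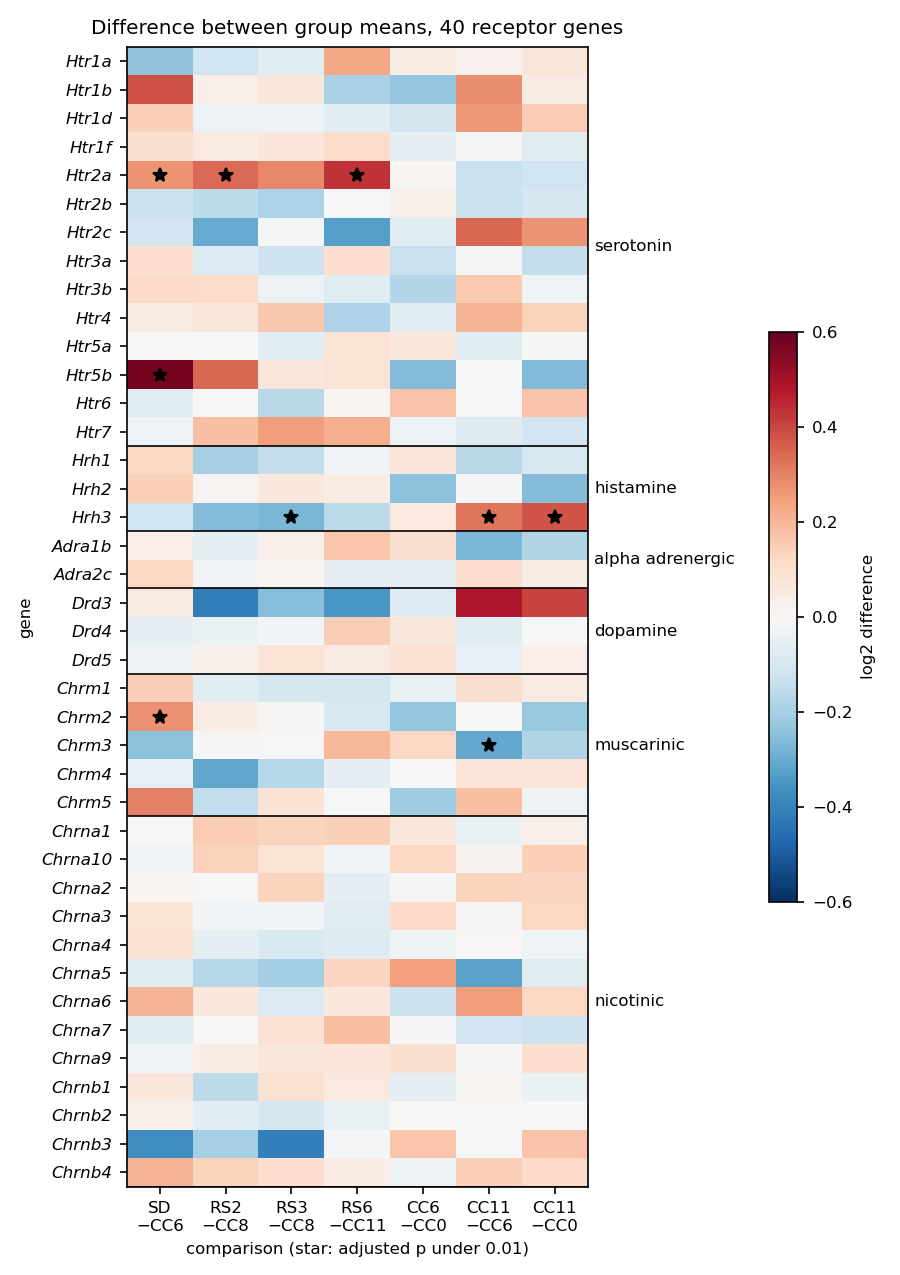
Log2 differences between group means for the 40 receptor genes (rows, grouped by receptor class) in 7 comparisons (columns), from limma with 6 RUV factors. Red is higher and blue lower in the group named first, and stars mark the 9 differences with an adjusted p under 0.01, of which 3 belong to Htr2a and 3 to Hrh3.

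Htr2a and Hrh3 are the genes with more than 1 call in the 7 comparisons between groups, and the sequence before the start of each is shown for that reason, from RefSeq (GRCm38.p6). The Hrh3 stretch is 173 bases on the minus strand, chr2:180104485-180104657, and lies outside every annotated transcript of the gene, whereas that of Htr2a is 250 bases on the plus strand, chr14:74640624-74640873. Capitals mark the GC box GGGCGG on either strand.
Hrh3: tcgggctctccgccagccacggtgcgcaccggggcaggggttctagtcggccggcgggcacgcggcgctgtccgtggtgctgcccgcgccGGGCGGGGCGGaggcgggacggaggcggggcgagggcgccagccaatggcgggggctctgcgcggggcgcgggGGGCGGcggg
Htr2a: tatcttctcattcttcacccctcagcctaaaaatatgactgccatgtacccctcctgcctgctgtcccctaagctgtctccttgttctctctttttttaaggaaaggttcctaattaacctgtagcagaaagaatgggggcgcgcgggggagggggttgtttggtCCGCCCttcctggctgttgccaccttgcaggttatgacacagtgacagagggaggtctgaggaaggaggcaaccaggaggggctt
The GC box occurred 3 times in the Hrh3 stretch, where a pair of matches shares 1 base, and 19.9% of promoters hold it in a window of that length. It occurred 1 time in the Htr2a stretch, with 32.7% of promoters holding it. Both strands were also searched for the E-box CACGTG, the cyclic AMP response element TGACGTCA with its shorter form TGACG, and the D-box TTATGTAA, and none of these letters occurred in either stretch. The shares of promoters with them were 3.48%, 0.533%, 10.1% and 0.505% in the shorter window and 6.02%, 1.55%, 17.8% and 0.819% in the longer. A match of letters is a description and not a binding site.

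Htr2a encodes a Gq-coupled serotonin receptor of cortical pyramidal neurons and the main target of the classic hallucinogens. Its levels were higher in SD than in CC6, and after 6 h of recovery they were still higher than in CC11. In CC6 its lowest, median and highest deposited log2 values were 9.18, 9.40 and 9.50, and in SD 9.14, 9.63 and 9.74. Thus 5 of 7 SD mice lay above every CC6 mouse. The other 2, at 9.16 and 9.14, lay below every CC6 mouse, and they are replicates 1 and 2, which stand apart on the first principal component. After RUV all 7 SD mice lay above every CC6 mouse. The difference was 0.27 (SE 0.0637, fold 1.21, adjusted p = 0.00676, limma). Without these 5 arrays it was 0.31 (adjusted p = 0.000579), and without them and without RUV 0.29 (adjusted p = 0.00387), whereas with all arrays and no RUV it was 0.15 (adjusted p = 0.312).

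In recovery the Htr2a values of RS2 were 9.57, 9.65, 9.65 and 9.81, against 9.18, 9.33 and 9.47 as lowest, median and highest in CC8. No RS2 mouse overlapped with CC8, and the difference was 0.34 (SE 0.0708, adjusted p = 0.00718). This call rested on few mice, since it was lost when replicate 1, 2 or 4 of RS2 was left out (adjusted p = 0.0376, 0.123 and 0.0108). In RS3 the values ran from 9.51 over a median of 9.64 to 9.75, all 7 mice were above every CC8 mouse, and the difference of 0.29 (95% interval 0.17 to 0.41) missed the threshold narrowly (adjusted p = 0.011). In RS6 they ran from 9.21 over 9.72 to 9.88, against 9.13, 9.26 and 9.40 in CC11. Here 6 of 7 RS6 mice were above every CC11 mouse, and the exception at 9.21 was replicate 1, one of the 5 arrays that stand apart. The RS6 difference was 0.43 (SE 0.0624, fold 1.35, adjusted p = 0.000128). Without the 5 arrays it was 0.46 (adjusted p = 5.47e-06), and without them and without RUV 0.44 (adjusted p = 0.000121). With all arrays and no RUV it was 0.36 and the call was lost (adjusted p = 0.0896). The RS6 effect exceeded that of SD by 0.16 (95% interval -0.01 to 0.34, adjusted p = 0.388), so a difference between them was not detected. Between CC6, CC8 and CC11 the median deposited level was 9.40, 9.33 and 9.26, and CC11 differed from CC6 by -0.13 (adjusted p = 0.286).

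**Figure D2:**
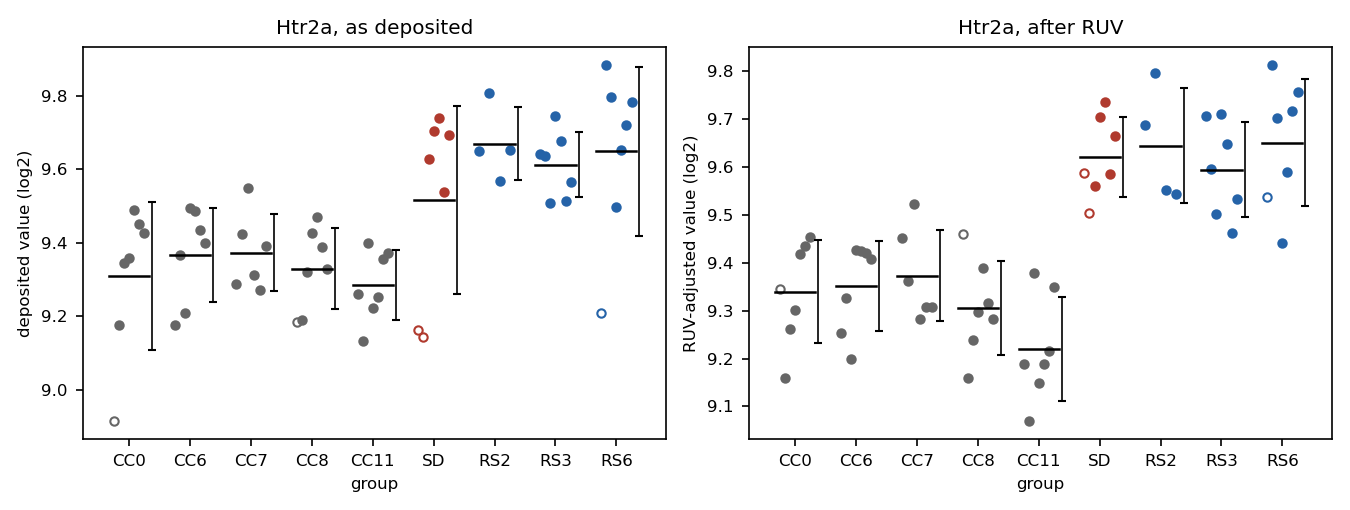
Htr2a log2 values in each mouse by group, as deposited (left) and after subtraction of the RUV factors (right). Points are mice (grey controls, red SD, blue recovery), open points are the 5 arrays that stand apart on the first principal component, lines are group means and bars 1 SD. All 7 SD mice lie above every CC6 mouse on the right, and 5 do on the left.

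Htr5b encodes a Gi/o-coupled serotonin receptor that is functional in mice and rats. Its deposited values in CC6 were 5.36, 5.61 and 6.02 (lowest, median and highest) and in SD 5.94, 6.15 and 6.53, with 5 of 7 SD mice above every CC6 mouse. The SD difference of 0.57 (SE 0.141, fold 1.49, adjusted p = 0.00917) was the largest of the 40 receptor genes. The call was close to the threshold and was lost without the 5 arrays that stand apart (0.52, adjusted p = 0.0257). The RS2 difference was 0.35 (95% interval 0.03 to 0.66, adjusted p = 0.415), while the values of RS3 (0.07, interval -0.20 to 0.34) and RS6 (0.08, interval -0.20 to 0.36) lay near 0. The test of RS6 against SD gave -0.49 (adjusted p = 0.176).

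None of the other 12 serotonin receptors was called. The median SD difference of the 14 was 0.07, 8 of them being positive, and that of RS6 was 0.04, with 9 positive. Htr5a, Gi/o-coupled and with the smallest span of group means of all 40 genes (0.11), differed by 0.00 in SD (95% interval -0.11 to 0.10) and by 0.08 in RS6 (interval -0.02 to 0.19). The genes Htr1a and Htr1b, both Gi/o-coupled and both presynaptic autoreceptors in parts of their range, were looked at after their values were seen. Htr1b was 0.38 higher in SD (adjusted p = 0.0385) and -0.19 in RS6 (adjusted p = 0.428), and Htr1a was -0.24 in SD (adjusted p = 0.166) and 0.23 in RS6 (adjusted p = 0.215). Their effects in RS6 and SD differed by -0.58 for Htr1b (adjusted p = 0.0249) and by 0.47 for Htr1a (adjusted p = 0.03), which missed the threshold.

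Hrh3 encodes the Gi/o-coupled histamine receptor that sits on histaminergic and other nerve endings, where it lowers the release of histamine and further transmitters, and drugs that block it promote waking. In undisturbed mice its values were higher late in the light phase, and in RS3 they were lower than in CC8. On the probeset with the higher mean, here called the main probeset, the median deposited value was 9.46 in CC0, 9.47 in CC6, 9.55 in CC7, 9.65 in CC8 and 9.74 in CC11. The moderated F test over the 5 control times gave an adjusted p of 2.61e-05, and Hrh3 was the only called gene of the 40, beside 0.896% of all probesets. At an unadjusted p under 0.05 there were 13 of 40, beside 16.7% of all probesets. CC6 mice lay between 9.36 and 9.59 and CC11 mice between 9.58 and 9.85, so that 6 of 7 CC11 mice were above every CC6 mouse. CC11 exceeded CC6 by 0.32 (SE 0.0529, fold 1.25, adjusted p = 0.000482) and CC0 by 0.38 (SE 0.0545, fold 1.30, adjusted p = 1.32e-05), whereas CC6 and CC0 differed by 0.06 (95% interval -0.05 to 0.17, adjusted p = 0.81). In the deposited values no CC11 mouse was above every CC0 mouse, because replicate 1 of CC0, one of the 5 arrays, was at 9.97. The highest of the other CC0 mice was at 9.51, and after RUV all 7 CC11 mice lay above every CC0 mouse. Without the 5 arrays and without RUV, CC11 exceeded CC6 by 0.27 (adjusted p = 0.00278) and CC0 by 0.35 (adjusted p = 3.97e-05). With all arrays and no RUV both calls were lost (0.27, adjusted p = 0.237, and 0.27, adjusted p = 0.0709).

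After sleep deprivation the Hrh3 values lay below those of the controls of the same time, although only the RS3 difference was called on this probeset. RS3 mice had deposited values of 9.30, 9.40 and 9.45 (lowest, median and highest) on the main probeset, against 9.43, 9.65 and 9.88 in CC8, and 6 of 7 RS3 mice lay below every CC8 mouse. The difference was -0.27 (SE 0.0524, fold 0.828, adjusted p = 0.00403), and it was -0.24 without the 5 arrays (adjusted p = 0.0199) and -0.23 without them and without RUV (adjusted p = 0.0306), where the call was lost. The RS2 mice had 9.30, 9.37, 9.39 and 9.47, 3 of 4 lay below every CC8 mouse, and the difference was -0.26 (95% interval -0.38 to -0.14, adjusted p = 0.0231). In SD the difference from CC6 was -0.12 (interval -0.23 to -0.01, adjusted p = 0.274), and in RS6 that from CC11 was -0.16 (interval -0.26 to -0.05, adjusted p = 0.142). The effects in RS2, RS3 and RS6 differed from that in SD by -0.14, -0.15 and -0.04, with adjusted p of 0.715, 0.515 and 0.873. No difference from the SD effect was thus detected, and these comparisons do not isolate recovery.

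The other Hrh3 probeset gave differences of the same sign as the main one in all 7 comparisons between groups. Its differences were -0.15 in SD, -0.22 in RS2, -0.27 in RS3 and -0.56 in RS6, of which the last was called (SE 0.109, fold 0.679, adjusted p = 0.00554). Deposited values in CC11 were 6.31, 6.71 and 6.88 (lowest, median and highest) and in RS6 5.88, 6.15 and 6.55, and 5 of 7 RS6 mice lay below every CC11 mouse. CC11 exceeded CC0 by 0.55 (adjusted p = 0.00171) and CC6 by 0.36 (adjusted p = 0.0681), and the F test over control times was called as well (adjusted p = 0.00675). The calls of this probeset in RS6 and in CC11 against CC0 were lost without the 5 arrays (adjusted p = 0.0123 and 0.0125). Within each mouse, the other probeset minus the main one was -3.46 in RS6 and -3.11 in CC11, a shift of -0.35 (exact permutation test, two-sided, p = 0.0152, adjusted over 7 comparisons 0.106). In the other 6 comparisons the exact permutation p was at least 0.143. The probesets also differ in their place on the array's numbering. The 10 annotated probesets before and the 10 after the main probeset all belong to genes on the minus strand of chromosome 2, the strand of Hrh3, and those around the other probeset all to genes on the plus strand of that chromosome. Which strand the probes read was not tested.

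**Figure D3:**
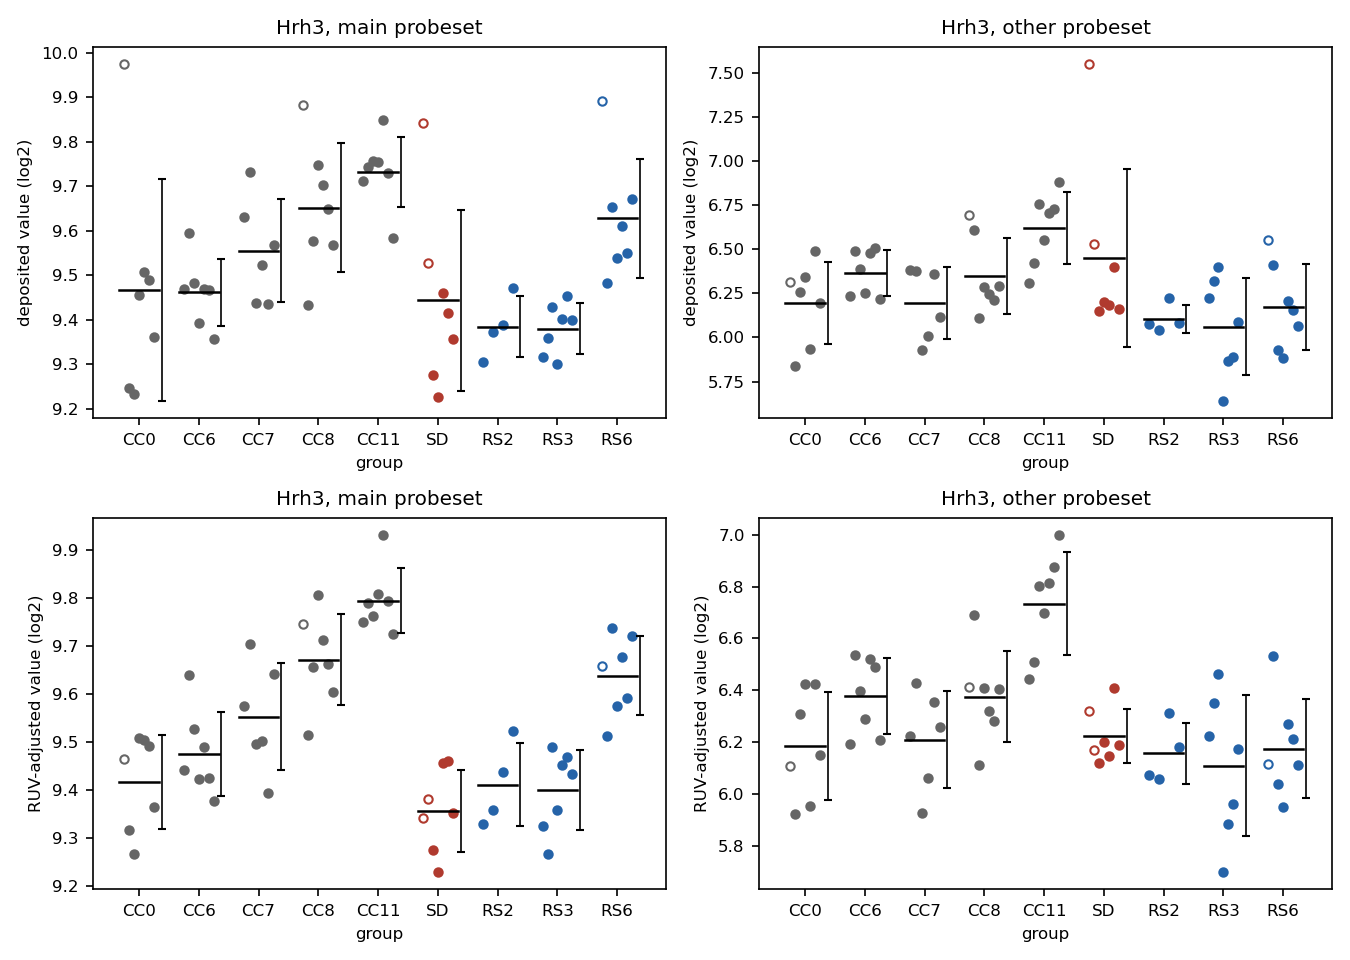
Hrh3 log2 values in each mouse by group for the main probeset (left) and the other probeset (right), as deposited (top) and after subtraction of the RUV factors (bottom). Points are mice, open points the 5 arrays that stand apart, lines group means and bars 1 SD. The CC11 mice are the highest of the 5 control groups on average on each panel, and RS3 lies below CC8.

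Striatum markers (Drd1, Drd2, Rgs9, Pde10a, Tac1, Penk and Adcy5) moved in some of the same comparisons. All 7 were higher in CC11 than in CC6, with a median of 0.58, and higher in CC11 than in CC0 (0.47), and all 7 were lower in RS2 (-0.39), in RS6 (-0.38) and in SD (-0.22), while in RS3 the median was 0.04. None was called. The mean of the 7 ran from 8.40 to 9.59 in CC6, from 8.98 to 9.73 in CC11, from 8.65 to 9.78 in CC8 and from 8.39 to 10.0 in RS3. With this mean as a covariate the main Hrh3 probeset remained called in CC11 against CC6 (0.32, adjusted p = 0.00297), in CC11 against CC0 (0.38, adjusted p = 3.95e-05) and in RS3 (-0.27, adjusted p = 0.0046). The calls of the other probeset were lost with it, in RS6 (-0.48, adjusted p = 0.0269) and in CC11 against CC0 (0.47, adjusted p = 0.0128). Htr2a in RS6 remained called (0.39, adjusted p = 0.00108), and Htr2a in SD (0.24, adjusted p = 0.0137) and RS2 (0.29, adjusted p = 0.0396) did not. Of the receptor genes known from the striatum, only Drd3 and Htr2c are set beside these markers here. Their values lay on the side of the markers in some comparisons and not in others, and neither was called. Drd3, a Gi/o-coupled dopamine receptor, differed by 0.48 in CC11 against CC6 (adjusted p = 0.0566), by -0.42 in RS2 (adjusted p = 0.295) and by -0.35 in RS6 (adjusted p = 0.228), but by 0.05 in SD and by -0.26 in RS3 (adjusted p = 0.914 and 0.476). Htr2c, a Gq-coupled serotonin receptor, was chosen after its values were seen. It differed by 0.34 in CC11 against CC6, -0.30 in RS2, -0.33 in RS6, -0.12 in SD and -0.01 in RS3 (adjusted p = 0.0791, 0.332, 0.113, 0.686 and 0.992). None of 7 choroid plexus markers was called. All 7 were lower in CC6 than in CC0 (median -0.17, lowest -1.12), and in RS6 their differences ran from -0.18 to 0.66. Of the other marker lists, Neurod6 of the excitatory neuron markers was lower in CC11 than in CC6 and CC0 (-0.34 and -0.41), Lef1 of the thalamus markers was lower in CC11 than in CC6 (-0.34), Vip of the interneuron markers was higher in RS2 (0.30), and Gnb4 of the claustrum markers was lower in SD, RS2 and RS3 (-0.31, -0.26 and -0.23). The lists of these markers moved less. The excitatory median was -0.03 in CC11 against CC6 (2 of 7 positive) and -0.04 against CC0 (1 of 7). The thalamus median in CC11 against CC6 was 0.00 (5 of 8 positive), and the interneuron median in RS2 was 0.08 (5 of 9). The claustrum medians were 0.02, 0.02 and -0.02 in SD, RS2 and RS3 (4, 4 and 2 of 7 positive). The part of these markers in the receptor results was not tested.

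Among the other histamine receptors, Hrh1 (Gq-coupled) and Hrh2 (Gs-coupled) were not called in any comparison. Hrh2 differed by 0.14 in SD (95% interval -0.01 to 0.29) and by 0.04 in RS6 (interval -0.10 to 0.19), and CC11 was -0.26 against CC0 (adjusted p = 0.0408). Hrh1 was 0.12 in SD (interval -0.04 to 0.28), -0.20 in RS2 (interval -0.37 to -0.02) and -0.02 in RS6 (interval -0.18 to 0.13).

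The muscarinic receptors held the called differences between the SD and RS6 effects. Chrm2 encodes a Gi/o-coupled receptor that acts as an autoreceptor on cholinergic endings, and Chrm3 a Gq-coupled one. In CC6 the Chrm2 values were 7.83, 8.09 and 8.16 (lowest, median and highest) and in SD 7.97, 8.20 and 8.43, with 4 of 7 SD mice above every CC6 mouse and 6 of 7 after RUV. The SD difference was 0.28 (SE 0.0618, fold 1.21, adjusted p = 0.00372). Without RUV it was 0.15 (adjusted p = 0.356), and without RUV and the 5 arrays 0.23 (adjusted p = 0.123). In RS6 Chrm2 had 7.15, 7.98 and 8.23, against 7.85, 8.12 and 8.34 in CC11, and the difference was -0.09 (95% interval -0.21 to 0.03, adjusted p = 0.519). The RS6 effect minus the SD effect was -0.37 (SE 0.0841, adjusted p = 0.00752). Without the 5 arrays it was -0.30 and missed the threshold (adjusted p = 0.0207). It also missed it without them and without RUV (-0.33, adjusted p = 0.147) and with 3 factors (-0.40, adjusted p = 0.0172). In RS2 and RS3 the differences of Chrm2 were 0.05 and 0.01.

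Chrm3 gave values of the opposite sign. Its values in CC6 were 8.99, 9.16 and 9.35 and in SD 8.86, 8.92 and 9.10 (lowest, median and highest), with 5 of 7 SD mice below every CC6 mouse, and the difference of -0.25 (95% interval -0.38 to -0.12) missed the threshold (adjusted p = 0.0148). In RS6 it had 8.84, 9.09 and 9.19 against 8.51, 8.91 and 8.97 in CC11, and 5 of 7 RS6 mice were above every CC11 mouse (0.20, interval 0.07 to 0.32, adjusted p = 0.0958). The RS6 effect minus the SD effect was 0.45 (SE 0.0867, adjusted p = 0.00134). Without the 5 arrays it was 0.49 (adjusted p = 0.000858), and without them and without RUV 0.48 (adjusted p = 0.00329). With all arrays and no RUV it was 0.42 and the call was lost (adjusted p = 0.01525). Undisturbed mice differed as well, the difference of CC11 from CC6 being -0.31 (SE 0.0611, fold 0.809, adjusted p = 0.00522), with all 7 CC11 mice below every CC6 mouse. The deposited medians of SD and RS6 themselves were 8.92 and 9.09. With the striatum marker mean as a covariate CC11 against CC6 was -0.24 (adjusted p = 0.0668) and no longer called.

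For both genes together, 2 of 40 receptor genes were called for the difference between the RS6 and SD effects, beside 1.03% of all probesets, and none for RS2 against SD (0.0518%) or RS3 against SD (0.207%), where 7 and 9 had an unadjusted p under 0.05 in limma (7.82% and 9.71% of all probesets). Without RUV none was called in any of these 3 tests, and for RS2 and RS3 against SD 6 and 10 had an unadjusted p under 0.05. Chrm1, the Gq-coupled muscarinic receptor of pyramidal neurons, showed 7 of 7 SD mice above every CC6 mouse in the deposited values (9.40 to 9.91 against 9.23 to 9.39). Its model difference was 0.15 (adjusted p = 0.0858), and 0.25 without RUV (adjusted p = 0.0144). The RS6 effect minus the SD effect was -0.25 (adjusted p = 0.0252). The other probeset of Chrm1 gave -0.30 in SD (95% interval -0.69 to 0.09) and -0.66 in RS6 (interval -1.04 to -0.28, adjusted p = 0.0679), so that the sign in SD differed between the probesets, neither being called. All 20 annotated neighbours of the Chrm1 probeset with the higher mean belong to genes on the plus strand. Those of the other all belong to genes on the minus strand. Which strand the Chrm1 probes read was not tested. Chrm4 and Chrm5 were not called.

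**Figure D4:**
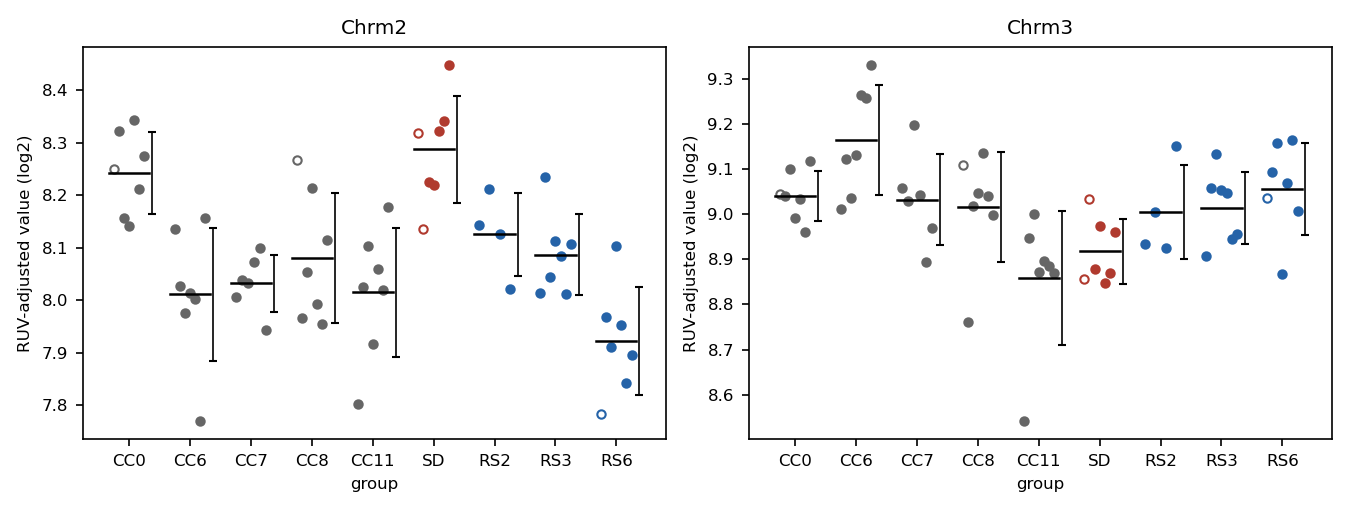
Chrm2 (left) and Chrm3 (right) log2 values in each mouse by group, after subtraction of the RUV factors. Points are mice, open points the 5 arrays that stand apart, lines group means and bars 1 SD. Chrm2 is higher in SD than in CC6, and Chrm3 is lower in CC11 than in CC6.

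**Figure D5:**
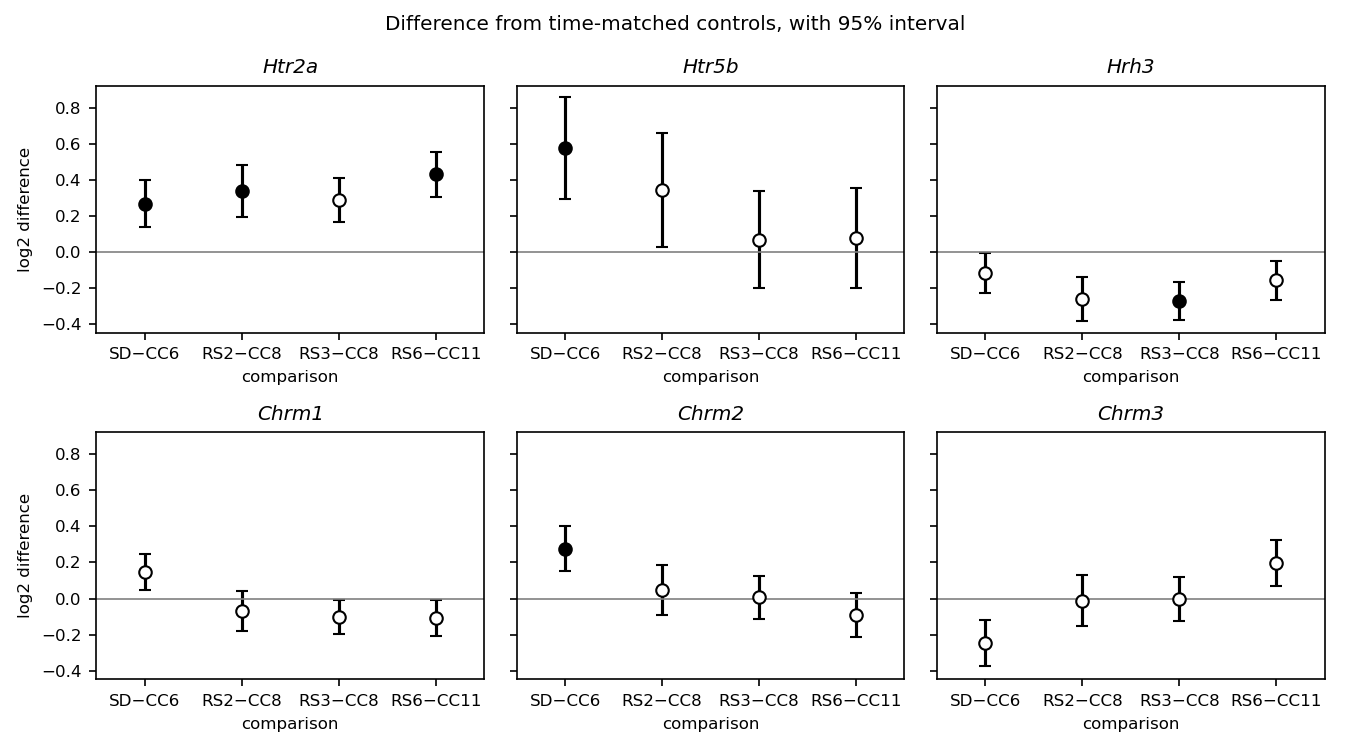
Log2 difference of SD, RS2, RS3 and RS6 from the controls of the same time for Htr2a, Htr5b, Hrh3, Chrm1, Chrm2 and Chrm3, from limma with 6 RUV factors. Bars are 95% intervals and filled points have an adjusted p under 0.01. Htr2a stays above 0 in all 4, Hrh3 below 0, and the Chrm2 and Chrm3 points of SD and RS6 lie on opposite sides.

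The adrenergic and dopamine receptors were not called in any comparison. Adra1b, Gq-coupled, was -0.27 in CC11 against CC6, with all 7 CC11 mice below every CC6 mouse in the deposited values (adjusted p = 0.0218), and 0.17 in RS6 (95% interval 0.03 to 0.30, adjusted p = 0.221). Adra2c, a Gi/o-coupled receptor that restrains noradrenaline release, differed by 0.12 in SD (interval -0.03 to 0.28) and -0.06 in RS6 (interval -0.21 to 0.10). Drd5, Gs-coupled, differed by -0.03 in SD (interval -0.18 to 0.12), and its other probeset by 0.04 (interval -0.17 to 0.25). Drd5 lies on the plus strand, as do 18 of the 20 neighbours of its first probeset. All 20 neighbours of its other probeset lie on the minus strand, and which strand the probes read was not tested. Drd4, Gi/o-coupled, differed by -0.05 in SD (interval -0.23 to 0.13) and 0.15 in RS6 (interval -0.03 to 0.32).

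None of the 13 nicotinic subunits was called in any comparison of the main fit. Their median difference was 0.01 in SD (8 of 13 positive), 0.00 in RS2 (6), 0.07 in RS3 (7) and 0.04 in RS6 (7). Chrna4, which with Chrnb2 forms the main high-affinity channel of the brain, differed by 0.09 in SD (95% interval -0.04 to 0.22) and -0.08 in RS6 (interval -0.21 to 0.05). Chrna7, which forms channels of its own, differed by -0.07 in SD (interval -0.19 to 0.04) and by 0.18 in RS6 (interval 0.07 to 0.30, adjusted p = 0.0887), where 4 of 7 mice were above every CC11 mouse. The accessory subunit Chrnb3 had the largest SD and RS3 differences of the class. Its values were 5.25, 5.62 and 5.86 in CC6 and 5.09, 5.15 and 5.53 in SD (lowest, median and highest), with 5 of 7 SD mice below every CC6 mouse, and the differences of -0.37 in SD and -0.41 in RS3 missed the threshold (adjusted p = 0.0604 and 0.0627). With a block for replicate number added to the model, Chrnb3 was called in SD.

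Between undisturbed mice, no receptor gene was called in CC6 against CC0 (0.158% of all probesets), where 5 of 40 had an unadjusted p under 0.05 in limma (9.49% of all probesets) and 3 without RUV, whereas 2 were called in CC11 against CC6 (0.265%) and 1 in CC11 against CC0 (0.975%). At an unadjusted p under 0.05 there were 14 of 40 genes in CC11 against CC6 (15.4% of all probesets) and 8 in CC11 against CC0 (15.5%). Over all 9 groups, the span from the lowest to the highest model mean ran from 0.11 (Htr5a) to 0.64 (Drd3), with a median of 0.26 for the receptor genes and 0.23 for all probesets, and the median residual SD was 0.157 and 0.159. By coupling, the median SD difference was 0.08 for the 12 Gi/o genes, 0.08 for the 8 Gq genes, -0.02 for the 5 Gs genes and 0.03 for the 15 ion channels, and the calls in SD comprised 2 Gi/o genes (Htr5b and Chrm2) and 1 Gq gene (Htr2a).

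Of the genes that act around the receptors, 1 was called, in SD and for the RS6 minus SD effect. In these tests 1.93% and 1.03% of all probesets were called, so 1 call does not show that these lists changed as sets. Of 17 measured genes for synthesis, transport and breakdown of the transmitters, none was called in any comparison, nor of 13 G protein alpha subunits or 7 nicotinic chaperones and Lynx proteins, which bind nicotinic receptors. Their median SD differences were 0.00, 0.00 and -0.07. Of 19 receptor kinases, arrestins and RGS proteins, which end receptor signals, 1 was called. Rgs17, an RGS protein that acts on Gi/o subunits, was 0.29 higher in SD (adjusted p = 0.00011), and its RS6 effect minus its SD effect was -0.33 (adjusted p = 0.00273), the RS6 difference being -0.04. Without RUV its SD difference was also past the threshold (adjusted p = 0.00813).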

How the data were processed

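The authors extracted cortical RNA, hybridized it to the arrays and deposited log2 values per probeset made by RMA (background correction, quantile normalization, summary of probes). Whether RUV had been applied to the deposited log2 values is not given in the sources used here. The file holds 60 arrays and 41345 probesets. The labels of 1 array name different recovery times, and it was left out of every comparison. No 2 arrays were identical. Collection was spread over days, but the labels tie no array to its day, so that day was not fitted.

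A probeset was kept if over 50% of the 59 arrays exceeded 4 on the log2 scale (32819). RUVs with 6 factors was written out in R 4.3.3, and limma 3.58.1 was fitted over all arrays with the 9 groups and the factors. P-values were adjusted by Benjamini-Hochberg over the kept probesets (threshold 0.01). The probeset difference of Hrh3 was tested with exact permutation tests. The fit was tested on simulated data.

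Members and gene lists were chosen with earlier results of these data known. Named with values are members past the threshold, those with another probeset past it, every Hrh3 probeset, and per class the 2 members with the highest mean and that with the lowest unadjusted p in SD and in RS6. Probesets with several symbols (2) were left out. Gene symbols came from GEO's platform annotation, and promoters from RefSeq. Alternatives were no RUV, 3 or 9 factors, factors subtracted beforehand, no filter, a filter at 6, a further quantile normalization, array weights, a replicate block, leaving out 5 arrays, a striatum covariate, the compared groups alone, leaving out each RS2 mouse, and, added after seeing the data, no RUV without the 5 arrays.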

Additional observations from a re-analysis of the deposited data

Results flagged for a closer look

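Chrm2 and Chrm3 were the receptor genes called for a difference between the RS6 and SD effects, each taken against the controls of the same time. Genes that missed the threshold, Htr1a and Htr1b among them, are not thereby shown to have equal effects. SD and RS6 also differ in deprivation (6 h and 5 h) and in time (ZT6 and ZT11), so recovery alone is not isolated. For Chrm3 the controls differed as well, CC11 minus CC6 being -0.31. The RS6 effect minus the SD effect was -0.37 for Chrm2 (adjusted p = 0.00752) and 0.45 for Chrm3 (adjusted p = 0.00134), both from limma. The Chrm2 call was kept under 2 of 6 alternatives and the Chrm3 call under 5 of 6.

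Single arrays lay far from the others of their group in 6 of 54 groups of deposited values examined, where chance gives about 1 in 20. Of these, 3 fell on arrays that stand apart on the first principal component: Hrh3 at 9.97 on the main probeset in replicate 1 of CC0, Hrh3 at 7.55 on the other probeset in replicate 1 of SD, and Chrm2 at 7.15 in replicate 1 of RS6. The other 3 were Chrm2 at 7.68 in replicate 1 of CC7, Chrm3 at 8.51 in replicate 1 of CC11 and Htr5b at 5.02 in replicate 2 of CC11.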

How the results depend on the processing

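Direction was kept in all 214 values obtained under the alternatives for 17 single results. These were 13 called results and 4 of those with an adjusted p between 0.01 and 0.05. Of the 214 values, 61 lost the call and 16 gained it. Other results in that range, Htr1b in SD among them, are not in this count. Without RUV all 13 calls were lost, and without RUV and the 5 arrays that stand apart 7 were. The number of receptor genes called, 3 in SD, 1 each in RS2, RS3, RS6 and CC11 against CC0, 2 in CC11 against CC6, 2 for the RS6 minus SD effect and 1 over the control times, changed by over 1.5 times as follows. Without RUV it was 0 in each of these 8, and with the compared groups alone 0 in SD, RS2, RS3, RS6 and both CC11 comparisons. With 3 factors it was 0 in SD, 0 in RS2, 1 in CC11 against CC6 and 1 for RS6 minus SD. With 9 factors it was 2 in RS3, 2 in CC11 against CC0 and 2 over the control times, and with the factors subtracted beforehand 5 in SD, 2 in RS2, 2 in RS3 and 2 in CC11 against CC0. Without the filter it was 0 in RS2, and with the filter at 6 or a further quantile normalization 2 in RS3. With array weights it was 2 in RS2, 2 in RS3 and 1 in CC11 against CC6. Without the 5 arrays it was 0 in RS3 and 1 for RS6 minus SD, and without RUV as well 1 in SD, 0 in RS2, 0 in RS3 and 1 for RS6 minus SD. With the striatum covariate it was 0 in RS2, 2 in RS3 and 1 in CC11 against CC6. Leaving out 1 RS2 mouse gave 0 to 1 in RS2. With both Hrh3 probesets counted it was 2 in RS6. Smaller changes were 2 in SD with 9 factors, without the filter or without the 5 arrays (Htr5b lost). It was 4 in SD with the filter at 6, a further quantile normalization, array weights or the striatum covariate. Chrm3 was gained in each of these, and Htr1b with the filter at 6 and with the striatum covariate. In CC11 against CC6 it was 3 with the factors subtracted, or without RUV and the 5 arrays (Adra1b gained). The cause of these changes was not tested.

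Between the groups compared, the deviations of mice with the same replicate number correlated between -0.122 and 0.21, over 0.1 in at most 3 of 7 pairs. The median of other pairs ran from -0.022 to 0.004. These values cannot exclude pairing by day, since the paper describes collecting 1 mouse per time point on each day. The main fit did not pair mice by number, although 4 of the 5 arrays that stand apart are replicate 1. With the replicate block the SD calls were Chrm3 (adjusted p = 0.000118), Chrnb3, Htr1b and Htr5b, so that 4 were called and Htr2a (adjusted p = 0.0247) and Chrm2 (adjusted p = 0.0101) were not. With this block the count was 1 in RS2, RS3, RS6 and CC11 against CC0, 3 for RS6 minus SD (Htr1b gained) and 1 in CC11 against CC6, where Chrm3 was lost (adjusted p = 0.0313). Over all probesets the calls ranged from 11 to 1228 around 634 in SD, from 0 to 171 around 98 in RS2, from 0 to 157 around 56 in RS3 and from 0 to 293 around 49 in RS6.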

Other observations

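The array that was assigned to no group had a deposited log2 value of 9.73 for Htr2a, 9.50 and 6.33 for the main and the other probeset of Hrh3, 8.13 for Chrm2, 9.04 for Chrm3 and 5.98 for Htr5b.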
